A study of Mus musculus with 6 samples.

Results

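The 9 genes described here encode the hypoxia-inducible factors (HIFs) and the proteins that sense oxygen for them: the alpha subunits Hif1a, Epas1 (HIF-2 alpha) and Hif3a, the shared partner Arnt (HIF-1 beta), the prolyl hydroxylases Egln1, Egln2 and Egln3, the ubiquitin ligase subunit Vhl, and the asparagine hydroxylase Hif1an. They were taken by symbol from 55573 genes listed, in 6 RNA-seq libraries of regulatory T cells (Tregs), a class of CD4+ cells marked by Foxp3 that holds immune responses in check. The set was chosen from family membership, but with the genotype difference of Epas1 in these libraries already known. Genotype differences of the 9 genes are therefore given as a description, without a test.

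The cells were sorted from the spleens of chimeric mice, whose marrow had been replaced by that of donors of both genotypes (bi-parental chimeras), and were kept for 2 h at rest in culture medium before lysis. Wild-type Tregs (3 libraries) were set against Nfkb2-/- Tregs (3 libraries), which by their label lack the gene for the NF-kB precursor p100. No further treatment was given to either. The labels call the 3 libraries of a genotype biological repeats and give no number of mice per library, no donor sex and no strain. If the repeats shared animals, p-values would measure only the spread between these libraries.

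In cells with enough oxygen, EGLN enzymes hydroxylate prolines of HIF alpha subunits, VHL binds the hydroxylated protein, and the proteasome destroys it. HIF1AN adds a hydroxyl group to an asparagine near the carboxyl end, which blocks the contact with transcriptional coactivators. When oxygen is short, alpha subunits accumulate, pair with ARNT and switch on genes of glycolysis, blood vessel growth and oxygen saving. In T cells Hif1a is also raised by antigen and cytokine signals. Since this control acts mainly on the protein, transcript levels say how much message was present and not how much HIF was active.

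The genes of the alpha subunits differ in the coding bases of the sites these enzymes read. Below are the coding bases of each proline that follows the leucine and alanine of the hydroxylation motif, with the proline codon in capitals, from GENCODE M21 transcripts on GRCm38. They are shown because they are the sites on which the measured enzymes act.
Hif1a, codon 402 of 836, exon 9, chr12:73939680-73939709, plus strand: cctgatgctctcactctgctggctCCAgct
Hif1a, codon 577 of 836, exon 12, chr12:73941967-73941996, plus strand: gatttagatttggagatgctggctCCCtat
Epas1, codon 405 of 874, exon 9, chr17:86824561-86824590, plus strand: cccgaggaactggcccagttggccCCCacc
Epas1, codon 530 of 874, exon 12, chr17:86827504-86827533, plus strand: gaactggatttggagaccttggcaCCCtac
Hif3a, codon 489 of 664, exon 12, chr7:17041202-17041231, minus strand: actctggacttggagatgctggccCCCtac

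Hif1a and Epas1 each held 2 such sites, and Hif3a held 1, in the longest annotated coding sequence of each gene. The Hif3a site was identical to the second Hif1a site at 23 of 30 bases and to the second Epas1 site at 22, against 13 and 17 bases at the first sites. The second sites of Hif1a and Epas1 were identical at 22 of 30 bases and their first sites at 17. Some base differences leave the amino acid unchanged, so these numbers do not measure how alike the sites are as protein.

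The asparagine that HIF1AN modifies was found in Hif1a and Epas1, and the motif searched for (cysteine, a glutamate or glutamine, valine, asparagine) was not found in the Hif3a sequence. Its codon is in capitals in the following stretches, which were identical at 22 of 30 bases.
Hif1a, codon 813, exon 15, chr12:73945605-73945634, plus strand: ctgaccagttacgattgtgaagttAATgct
Epas1, codon 851, exon 16, chr17:86831004-86831033, plus strand: ctgaccagatatgactgtgaggtgAACgtg

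The libraries held 12005273 to 17278521 counts each. Levels below are CPM, the counts of a gene scaled to a common library size by the TMM method. Nfkb2 itself was at 558, 545 and 556 CPM in wild type and still at 269, 324 and 271 CPM in the libraries labelled Nfkb2-/- (log2 fold change -0.94). Gene counts do not show which exons these reads came from. Treg markers were present in all libraries (Foxp3 at 407 to 622 CPM). Xist stood at 592 to 883 CPM in Nfkb2-/- and 1.94 to 16.5 CPM in wild type, and 4 Y-linked genes summed to 40.0, 138 and 275 CPM in Nfkb2-/- replicates 1 to 3 against 465 to 498 CPM. Genotype and donor sex cannot be told apart, and each library labelled Nfkb2-/- held transcripts of both kinds. Wild-type replicate 1 stood apart, with 7.23% of genes over 2-fold above the mean of the other 2 wild-type libraries, so results are also given without it where it matters. In the fit across all 13347 genes that passed the count filter, 135 rose and 54 fell in Nfkb2-/- Tregs (edgeR quasi-likelihood test, p adjusted after Benjamini and Hochberg, threshold 0.05). This main fit is unpaired. A fit that pairs same-numbered libraries of the genotypes (replicate block) called 289 genes.

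Among the alpha subunit genes, Epas1 was 2.46 times as abundant in Nfkb2-/- Tregs as in wild type, Hif1a overlapped between the genotypes, and Hif3a was barely counted. Epas1 (ENSMUSG00000024140; GRCm38 chr17:86753700-86833410) encodes HIF-2 alpha, well known from endothelial cells and kidney among other sites. Its level was 183, 144 and 206 CPM in the 3 Nfkb2-/- libraries, in the order of their replicate numbers as throughout, against 98.7, 58.9 and 58.8 CPM in wild type. The genotypes did not overlap, and wild-type replicate 1 lay between the other wild-type libraries and the Nfkb2-/- libraries. Nfkb2-/- libraries averaged 178 ± 31.3 CPM and wild-type libraries 72.2 ± 23.0 CPM (SD, n = 3 each). The log2 fold change was 1.30 (SE 0.237), or 1.33 (SE 0.187) with the replicate block. With 1 library left out it lay between 1.17 and 1.59, the highest value being that without wild-type replicate 1.

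Epas1 was the only 1 of the 9 genes past the threshold of the fit across all genes, where 1.42% of genes were called. As the gene was known to differ when the set was drawn up, nothing is read from that count. With a library left out it kept that side of the threshold without wild-type replicate 1, and lost it without any single one of the other 5. Only 15 genes in all were called without Nfkb2-/- replicate 1, 7 without replicate 2 and 12 without replicate 3.

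Hif1a (ENSMUSG00000021109; chr12:73901375-73947530) encodes HIF-1 alpha, the subunit that drives glycolysis in activated T cells. Its levels were 442, 468 and 478 CPM in Nfkb2-/- and 380, 461 and 393 CPM in wild type. The groups overlapped through wild-type replicate 2, and the log2 fold change was 0.17 (SE 0.134). An antisense gene, Gm15283, covers 5.6% of the Hif1a exon length and held 39 to 87 counts per library against 4679 to 7043 for Hif1a.

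Hif3a (ENSMUSG00000004328; chr7:17031507-17062427), whose products include inhibitors of the other alpha subunits, had 7, 6 and 6 counts in the Nfkb2-/- libraries and 19, 8 and 15 counts in wild type. That is 0.422 to 0.579 CPM against 0.633 to 1.26 CPM. It did not pass the count filter, so 8 of the 9 genes were fitted. The CPM values did not overlap, but they rest on 19 and 42 counts per genotype. With no count filter the log2 fold change was -0.97 and was not called.

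**Figure D1:**
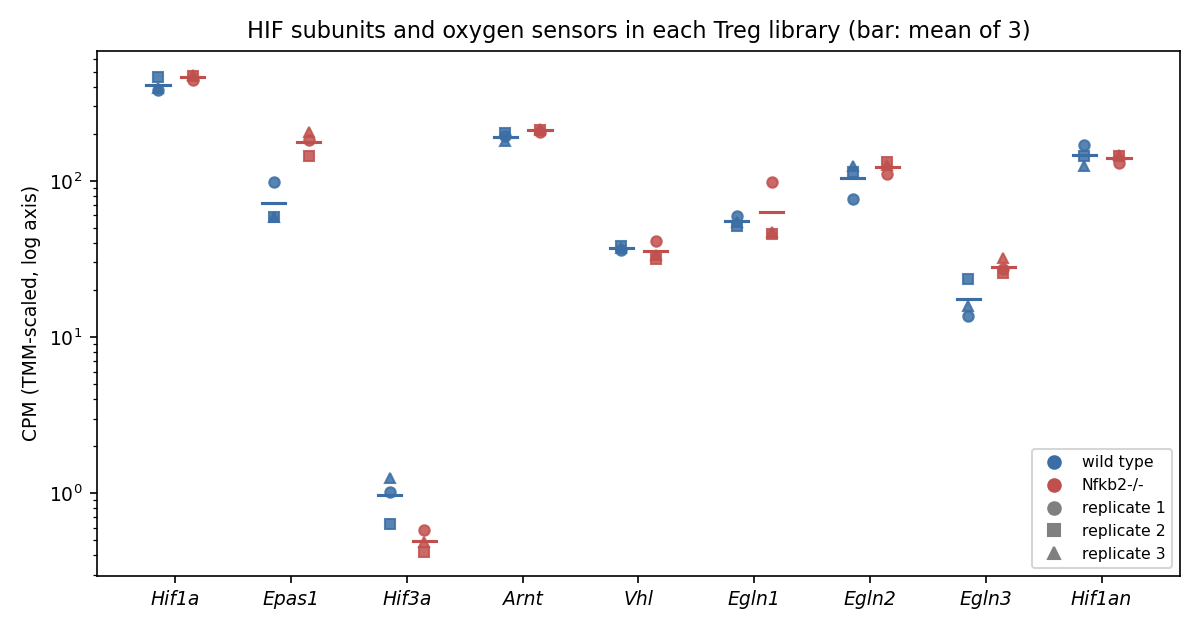
CPM (log axis) of the 9 genes in each library, wild type in blue and Nfkb2-/- in red, with a bar at the mean of 3. Epas1 stands at 144 to 206 CPM in Nfkb2-/- and 58.8 to 98.7 CPM in wild type, Egln1 has 1 library at 97.5 CPM, and Hif3a lies near 1 CPM or below.

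Arnt (ENSMUSG00000015522; chr3:95434388-95497240), the usual partner with which alpha subunits bind DNA, spread little between libraries. It was at 206, 210 and 216 CPM in Nfkb2-/- and at 194, 202 and 180 CPM in wild type. The groups did not overlap, though the gap was small, at a log2 fold change of 0.13 (SE 0.111). Of the 8 genes fitted, 3 (Epas1, Arnt and Egln3) were higher without overlap, where 10.7% of all genes tested were higher and 9.9% lower without overlap. Epas1 was known to differ when the set was drawn up, so nothing is read from this count.

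To compare the genes with each other, counts were divided by exon length and scaled to the same total in every library (TPM). Hif1a was the most abundant of the 9 in both genotypes, at 235 ± 34.9 TPM in wild type and 268 ± 5.65 TPM in Nfkb2-/- (SD, n = 3 each). Egln2 came second at 124 ± 18.5 and 149 ± 12.1 TPM, and neither overlapped the gene above or below it. In wild type Arnt (81.2 TPM), Hif1an (75.7), Egln1 (51.9), Epas1 (44.5) and Vhl (41.9) followed, and each overlapped its neighbour in this order. Egln3 (22.3 TPM) lay below all of these and Hif3a (0.484 TPM) last. In Nfkb2-/- Tregs Epas1 took the third place at 108 ± 17.5 TPM, overlapping Arnt at 89.9 ± 0.51 TPM. With the longest transcript in place of the whole exon length, Arnt came before Epas1 there, at 127 against 83.9 TPM.

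Among alpha subunit transcripts the balance between Hif1a and Epas1 differed. Of the summed alpha TPM, Epas1 held 30.4%, 24.5% and 31.2% in Nfkb2-/- libraries against 21.5%, 11.9% and 13.6% in wild type. The Hif1a to Epas1 ratio in TPM was accordingly 2.29, 3.09 and 2.20 in Nfkb2-/-, and 3.65, 7.41 and 6.34 in wild type, with no overlap. Hif3a never reached 0.25% of the alpha total. The alpha sum over Arnt was 4.01 to 4.37 in Nfkb2-/- and 3.40 to 3.53 in wild type. These shares follow from the Epas1 difference above and add no independent evidence.

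**Figure D2:**
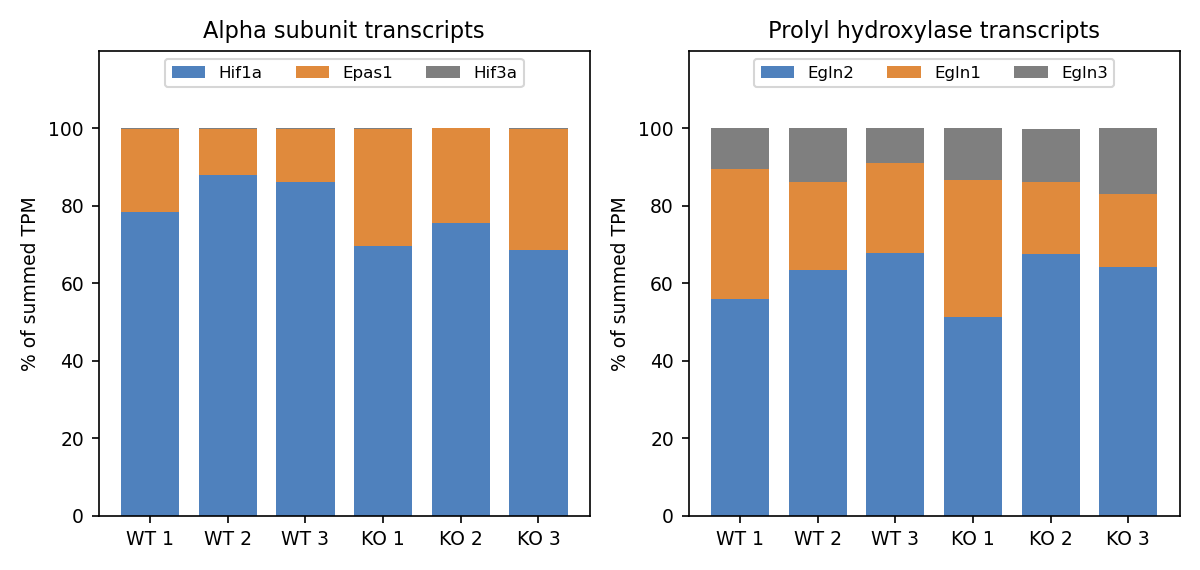
Share of each gene in the summed TPM of the alpha subunits (left) and of the prolyl hydroxylases (right), for the 3 wild-type (WT) and 3 Nfkb2-/- (KO) libraries. Epas1 holds 11.9% to 21.5% of alpha transcripts in wild type and 24.5% to 31.2% in Nfkb2-/-, and Egln1 holds its largest shares in replicate 1 of both genotypes (33.7% and 35.4%).

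The 3 prolyl hydroxylase genes each behaved in their own way. Egln3 (ENSMUSG00000035105; chr12:54178981-54203860), the enzyme most strongly induced by HIF itself in many cell types, was at 27.1, 25.7 and 31.9 CPM in Nfkb2-/- and 13.6, 23.6 and 15.7 CPM in wild type. The groups did not overlap, though wild-type replicate 2 lay closer to the Nfkb2-/- libraries than to the other wild-type libraries. The log2 fold change was 0.68 (SE 0.227), and 0.52 to 0.94 with each library left out. It was not called in any of the fits run.

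Egln1 (ENSMUSG00000031987; chr8:124908587-124949324), the main oxygen sensor of most cells and itself a HIF target, was at 97.5, 45.9 and 47.3 CPM in Nfkb2-/-. Wild type stood at 59.2, 51.4 and 54.6 CPM. Nfkb2-/- replicate 1 was thus the highest of the 6 libraries and the other 2 of its genotype were the lowest. The log2 fold change of 0.21 (SE 0.286) became -0.24 (SE 0.145) without Nfkb2-/- replicate 1.

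Egln2 (ENSMUSG00000058709; chr7:27158658-27166802), a nuclear prolyl hydroxylase, was the most abundant of the 3 per length in every library, at 51.3% to 67.7% of their summed TPM. Its CPM was 110, 131 and 126 in Nfkb2-/- and 76.5, 113 and 124 in wild type. The groups overlapped, and wild-type replicate 1 was the lowest library. The log2 fold change of 0.23 (SE 0.187) was 0.05 without that library.

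Vhl (ENSMUSG00000033933; chr6:113623959-113631633) and Hif1an (ENSMUSG00000036450; chr19:44562850-44576274) differed between the genotypes by less than the spread of their libraries. Vhl, the subunit of the ubiquitin ligase that recognises hydroxylated HIF, was at 41.2, 31.8 and 33.5 CPM in Nfkb2-/- and 36.1, 38.1 and 37.4 CPM in wild type. Hif1an was at 129, 144 and 147 CPM in Nfkb2-/- and 170, 144 and 125 CPM in wild type. Both had a log2 fold change of -0.07 (SE 0.144 and 0.141), and both groups overlapped.

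Hif1an lies 1.73 Mb before Nfkb2 on chromosome 19 (Nfkb2 is at chr19:46304320-46312385), on the chromosome that carries the targeted allele. Within 1 Mb of Hif1an 24 other genes were tested, of which edgeR called 0 higher and 1 lower, with 6 at an unadjusted p under 0.05 and 4 called by DESeq2. The gene that fell was Scd1, a fatty acid desaturase (log2 fold change -3.24, edgeR adjusted p = 0.0286). Of these 24 genes 1 was higher and 8 were lower without overlap, where 10.7% and 9.9% of all genes tested were, and 13.6% of all genes tested had an unadjusted p under 0.05. Around Epas1 13 genes were tested within 1 Mb, and edgeR called 0, with 1 at an unadjusted p under 0.05 and 1 called by DESeq2. They had log2 fold changes from -0.44 to 0.97. For both windows, the share called over all genes was 1.42% of 13347 by edgeR. By DESeq2 it was 3.69% of the 17177 genes that it gave an adjusted p, a wider set than that of the windows.

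**Figure D3:**
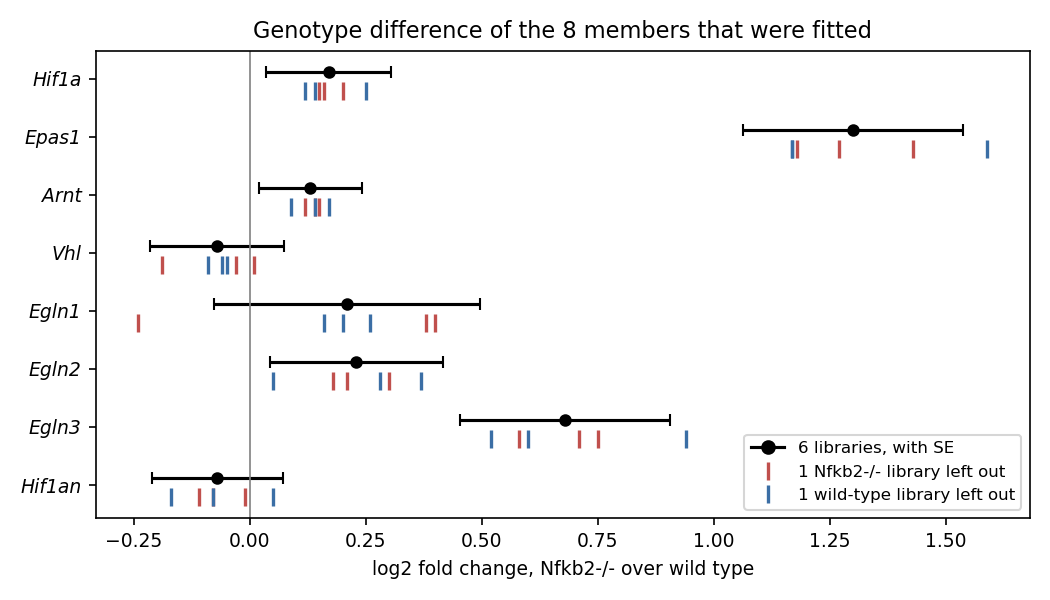
Log2 fold change of Nfkb2-/- over wild type for the 8 genes fitted, as black points with their SE, and the values with 1 Nfkb2-/- (red) or 1 wild-type (blue) library left out as ticks. Epas1 stays between 1.17 and 1.59, Egln3 between 0.52 and 0.94, and Egln1 crosses 0 when Nfkb2-/- replicate 1 is left out.

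Epas1 is also expressed by cells other than T cells, so the markers of those cells are given beside it. In bulk RNA, more cells of a type and more RNA per cell cannot be told apart. Of 12 endothelial markers 8 were under 1 CPM in every library and Tie1 was at 0 throughout. Without Pecam1, which T cells also make, the other 11 summed to 1.24 to 1.83 CPM in Nfkb2-/- and 1.01 to 4.19 CPM in wild type, with no marker above 1.5 CPM. The 12 markers of macrophages and monocytes summed to 25.1 to 46.6 CPM in Nfkb2-/- and 18.1 to 49.5 CPM in wild type. Among them Vcam1 was higher without overlap (9.76 to 14.9 against 0.324 to 4.91 CPM). Fcgr1 was lower without overlap, at 0 against 0.0539 to 0.158 CPM, and the rest overlapped.

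The 12 B cell markers, among which Cd79a fell (edgeR adjusted p = 0.023), summed to 60.2, 67.9 and 89.0 CPM in Nfkb2-/- and to 106, 334 and 235 CPM in wild type. The sums did not overlap, while single markers such as Cd22 (8.77 to 12.8 against 3.88 to 27.4 CPM) and Cd72 (21.5 to 27.5 against 15.5 to 34.2 CPM) did. The library lowest in B cell markers among wild type, replicate 1, was the wild-type library highest in Epas1. Among Nfkb2-/- libraries, replicate 3 was the highest in both (89.0 CPM of B cell markers and 206 CPM of Epas1). The 8 dendritic cell markers summed to 134 to 178 CPM in Nfkb2-/- and 71.6 to 111 CPM in wild type. Of these 1, Zbtb46, rose (86.8 to 118 against 16.5 to 42.1 CPM, edgeR adjusted p = 0.0355). The other dendritic cell markers overlapped, among them Cst3 (44.8 to 49.1 against 26.6 to 51.9 CPM). Itgax and Flt3 stayed under 6 CPM in every library. Neutrophil markers summed to 16.1 to 36.6 against 4.54 to 67.3 CPM, and erythroid markers to 24.2 to 45.6 against 35.3 to 62.0 CPM. CD8 T and NK cell markers summed to 32.9 to 43.7 against 28.3 to 45.6 CPM. Of these, Eomes was higher (edgeR adjusted p = 0.0364), while Cd8b1 was lower without overlap (6.26 to 8.94 against 10.7 to 11.4 CPM). Cd8a, Gzmk and Klrk1 overlapped. The 10 Treg markers summed to 4700 to 5200 and 3780 to 5520 CPM, and edgeR called 0 of them. Single Treg markers went both ways without overlap. Ikzf2 was higher (722 to 823 against 436 to 539 CPM) and Il2ra lower (410 to 496 against 525 to 635 CPM). The part of these differences in the Epas1 result was not tested.

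The genes whose levels followed Epas1 most closely over the 6 libraries, out of 8024 with an average of 10 CPM or more, were Sh3pxd2b, Swap70, Padi2, Psd4 and Tmem123, at Pearson r of 0.984 to 0.990 of log2 CPM. Sh3pxd2b, a scaffold of podosomes, ran from 33.4 to 55.0 CPM in Nfkb2-/- and from 1.11 to 6.47 CPM in wild type. Swap70, a signalling protein of B cells and other leukocytes, ran from 166 to 193 CPM in Nfkb2-/- and 109 to 134 CPM in wild type. Padi2, which converts arginine to citrulline in proteins, ran from 21.7 to 29.8 CPM and 10.2 to 14.7 CPM. In all 3, as in Epas1, wild-type replicate 1 was the highest wild-type library, an order that the choice by r favours in advance. A high r does not speak to size: Psd4 had a log2 fold change of 0.19 (edgeR adjusted p = 0.558). For Hif1a the closest were Mfsd14b, Clstn1, Atf6, Strn3 and Arap2, at r of 0.978 to 0.994. Among the 9 genes Hif1a went most closely with Egln3 (r = 0.95) and Arnt (r = 0.85), Epas1 with Arnt (r = 0.79), and Vhl with Egln1 (r = 0.82). These are descriptions over 6 libraries that share 2 genotypes.

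Other components of the pathway were taken from 5 lists that hold none of the 9 genes. The lists were written with earlier results of these data known, so their counts and medians are given as a description. The list of dimerization partners, coactivators and chaperones had 17 tested genes, of which 1 rose and 0 fell by edgeR (4 higher and 1 lower at an unadjusted p under 0.05, where 7.25% and 6.35% of all genes tested were), with a median log2 fold change of 0.04 against -0.03 over all genes tested. The gene that rose was Arnt2, the close relative of Arnt that can pair with HIF alpha in its place. It was at 32.5, 30.5 and 33.5 CPM in Nfkb2-/- and 3.51, 11.2 and 8.82 CPM in wild type, and its log2 fold change was 2.05 (SE 0.37) with an edgeR adjusted p of 0.0457. The genotypes did not overlap, and all 3 Nfkb2-/- libraries were close to each other. Without each library in turn the log2 fold change stayed between 1.68 and 2.40, but of these 6 fits Arnt2 was called only in that without wild-type replicate 1 (edgeR adjusted p 6.72e-05 there, and 0.064 to 0.203 in the others). In that fit, which called 9.04% of all genes, 6 genes of the list were called, 4 higher and 2 lower. DESeq2, which called 3.69% of the 17177 genes that it gave an adjusted p, called 2 of the list higher. The gene it added was Npas2, a clock relative of the same protein family (1.38, DESeq2 adjusted p = 0.00883). The coactivator genes Ep300 and Crebbp had log2 fold changes of 0.04 and 0.25.

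Of the genes of the VHL ligase and of HIF degradation 17 were tested: 0 rose and 0 fell by edgeR, 0 were called by DESeq2, and 2 had an unadjusted p under 0.05, 1 in each direction, against 13.6% of all genes tested. Usp20, a deubiquitinase that can protect HIF-1 alpha, was at 22.7 ± 1.06 against 17.8 ± 1.39 CPM, and Stub1, a chaperone-linked ubiquitin ligase, at 19.2 ± 1.22 against 24.3 ± 2.15 CPM (SD, n = 3 each; edgeR adjusted p = 0.342 and 0.365). The ligase subunits Elob, Eloc, Cul2 and Rbx1 had log2 fold changes of -0.07, 0.03, 0.12 and -0.23.

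Of HIF target genes outside glycolysis, 26 were tested, and 1 rose and 0 fell by edgeR (7 higher and 0 lower at an unadjusted p under 0.05, where 7.25% and 6.35% of all genes tested were). The median log2 fold change was 0.28 with 22 positive, against a median of -0.03 and 45.0% positive over all genes tested. As the list was written with earlier results known, nothing is read from these counts. The gene that rose was Bhlhe40, a transcription factor that HIF induces and that T cell activation also induces. It was at 1490, 1500 and 1790 CPM in Nfkb2-/- and 346, 467 and 486 CPM in wild type, which gave a log2 fold change of 1.88 (SE 0.188) and an edgeR adjusted p of 0.00807. Its call was lost without any 1 of the Nfkb2-/- libraries (edgeR adjusted p 0.0547 to 0.0721), while the log2 fold change stayed between 1.79 and 1.92. Ndrg1, a HIF target named here after its values were seen, was at 152, 219 and 215 CPM against 83.5, 119 and 107 CPM. Its edgeR adjusted p was 0.067, or 0.0236 with the replicate block (2.17% of all genes called) and 0.00269 by DESeq2, each of which called 2 genes of the list. Without wild-type replicate 1, 4 rose, in a fit that called 9.04% of all genes. The list median was 0.08 without that library, 0.18 without Nfkb2-/- replicate 1 and 0.49 without wild-type replicate 2. Vegfa, the blood vessel growth factor and a classical target, overlapped at 11.8 to 14.7 CPM in Nfkb2-/- and 9.82 to 14.4 CPM in wild type.

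HIF target genes of glycolysis had 19 tested members, of which 0 rose and 0 fell by edgeR, 2 had an unadjusted p under 0.05, both higher (7.25% of all genes tested), and 1 was called by DESeq2. The median log2 fold change was 0.29 with 17 positive, but the median was 0.09 without Nfkb2-/- replicate 1 and 0.10 without wild-type replicate 1. Hk2, the inducible hexokinase, was at 63.9, 36.0 and 36.6 CPM in Nfkb2-/- and 8.36, 23.9 and 21.8 CPM in wild type (edgeR adjusted p = 0.181, DESeq2 adjusted p = 0.0212). Pgam1, phosphoglycerate mutase, was at 54.1 to 72.3 CPM and 32.8 to 50.9 CPM (edgeR adjusted p = 0.346). Several glycolytic genes have near-identical pseudogenes, so their counts are uncertain, and Aldoa was counted at under 1 CPM.

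The other oxygen-dependent dioxygenases, which use the same chemistry on histones, DNA, RNA or other substrates, had 21 tested members, of which 0 rose and 0 fell by edgeR and 5 had an unadjusted p under 0.05 (3 higher, 2 lower, where 7.25% and 6.35% of all genes tested were), and 1 was called by DESeq2. Kdm6a, a histone demethylase that responds to oxygen, was at 189, 188 and 160 CPM in Nfkb2-/- and 107, 124 and 106 CPM in wild type. Its log2 fold change was 0.67 (SE 0.127; edgeR adjusted p = 0.0517, 0.0453 with the replicate block, DESeq2 adjusted p = 0.00276). Kdm5c, another histone demethylase, had a log2 fold change of 0.40 (edgeR adjusted p = 0.198). Without wild-type replicate 1 both were called, in a fit that called 9.04% of all genes. Both genes lie on the X chromosome and are known to escape its inactivation, so genotype and sex cannot be told apart here. P4htm, the membrane-bound prolyl hydroxylase, and Ado, an oxygen sensor of another kind, had log2 fold changes of -0.09 and -0.28.

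**Figure D4:**
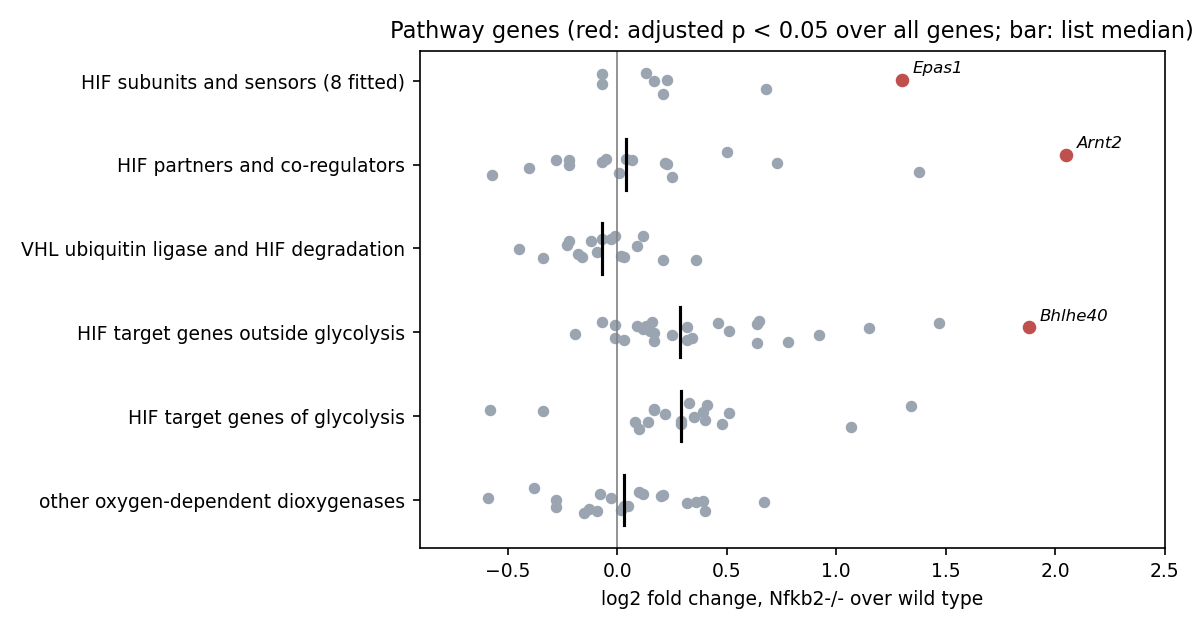
Log2 fold change (Nfkb2-/- over wild type) of every fitted gene, with a row for each list, list medians as bars and genes called over all genes tested in red. Epas1, Arnt2 and Bhlhe40 lie at 1.30, 2.05 and 1.88, and the medians of the 2 target lists (0.28 and 0.29) lie to the right of the other lists.

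HIF target genes of glycolysis also varied between libraries of the same genotype, a pattern taken up after the Egln1 values were seen. In Nfkb2-/- replicate 1 all 19 glycolytic target genes were above the mean of the other 2 Nfkb2-/- libraries, with a median log2 difference of 0.54, against -0.01 over all genes tested. Of these 19, 4 were over 2-fold higher (Pfkl, Tpi1, Eno1 and Pdk1), as were 1.13% of all genes tested. Tpi1, triosephosphate isomerase, had 194, 63.0 and 57.5 CPM in Nfkb2-/-. Of the targets outside glycolysis 16 of 26 were above that mean, with a median of 0.25, from Bnip3 (5.38, 1.41 and 1.22 CPM), a HIF target of mitochondrial clearance, at 1.92 to Hmox1, heme oxygenase, at -0.62. Egln1 differed the same way by 1.06 on the log2 scale, while Epas1 (0.09) and Hif1a (-0.10) did not. Wild-type replicate 1 went the other way, with 17 of the 19 glycolytic genes below the mean of the other 2 and a median of -0.64. Values for the 3 libraries of a genotype are linked, as each is set against the other 2, and there is no test.

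**Figure D5:**
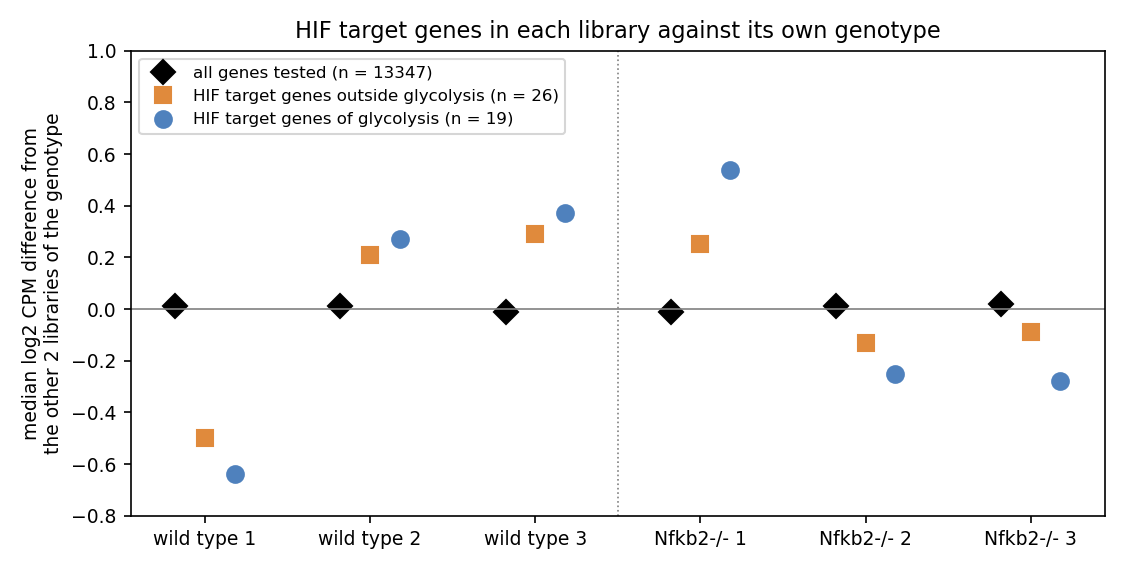
Median log2 CPM difference of each library from the mean of the other 2 libraries of its genotype, for all genes tested (black), HIF target genes outside glycolysis (orange) and of glycolysis (blue). The glycolytic targets are highest in Nfkb2-/- replicate 1 (0.54) and lowest in wild-type replicate 1 (-0.64), and all genes tested stay within 0.02 of 0.

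Promoter windows from RefSeq (GRCm38.p6, 250 bases before to 50 after RefSeq's start) were at hand for 8 of the 9 genes; Epas1 was not among them. They were searched on both strands for ACGTG, a form of the core that HIF dimers bind, and for no other form of it. Of all 32851 windows 19.6% hold ACGTG. It was found in windows of Hif1a, Egln1, Egln2 and Egln3, while a further Egln2 window (chr7:27165679-27165978) held 0 matches. The stretches below show it in capitals, because 3 of these 4 genes encode the enzymes that act on HIF. A match is a string of letters and was not shown to be bound. In Hif1a and Egln2 a further match on the opposite strand overlaps a match on the gene's own strand (CACGTG), and only the latter is shown.
Egln1, chr8:124949308-124949332, minus strand: gccgtggtgtACGTGcagcgcgcgc
Egln2, chr7:27166836-27166860, minus strand: cctcctgtcaACGTGcggttcgcgc
Egln2, chr7:27166791-27166815, minus strand: ggccgctgtcACGTGcccagcgggc
Egln3, chr12:54204089-54204113, minus strand: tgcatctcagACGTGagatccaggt
Hif1a, chr12:73907723-73907747, plus strand: acagacaagcACGTGagcggggcag
Hif1a, chr12:73907787-73907811, plus strand: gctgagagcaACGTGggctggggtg

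The kappaB consensus, the motif of NF-kB dimers, was in none of the windows of these 8 genes, where 4.51% of all windows hold it. That says only that these letters were not in these windows.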

How the data were processed

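For each library the authors deposited raw read counts by Ensembl gene, as whole numbers. Per the submitters' processing notes the tools were FastQC, HISAT2, HTSeq and DESeq2 on GRCm38; versions and counting mode are not given in the sources used here. Libraries were unstranded, per the labels' protocols, so overlapping genes cannot be told apart by strand. Of 55573 identifiers 55480 matched GENCODE M21 (GRCm38). Counts were fitted with edgeR 4.0.16 in R 4.3.3 (filterByExpr, TMM, robust quasi-likelihood, genotype as the only term) and p-values were adjusted by Benjamini-Hochberg over 13347 genes, at a threshold of 0.05. The SE is the log2 fold change over the root of the F statistic. TPM used the union of exons. The self-test ran on simulated counts.

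The members and lists were chosen with earlier results of these data known. All 9 members are named, and from each list every called gene up to 6, or the 2 with the smallest p; the 5 genes most like Epas1 and Hif1a were taken by Pearson r of log2 CPM (prior count 2). Other genes were named after their values were seen.

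The labels number the libraries of both genotypes 1 to 3. Deviations of same-numbered libraries from their genotype means correlated at 0.364, 0.267 and 0.111, each over the 0.1 set as the rule for pairing. The main fit, with genotype as the only term, leaves this pairing out, so its SE and calls are unpaired. The fit with the replicate block uses the pairing. It called 289 genes against 189 in the main fit, and Ndrg1 and Kdm6a were among those it added. The pairing is uncertain for replicate 3, whose Nfkb2-/- library had a higher correlation, 0.251, with the second wild-type library. Alternatives were RLE scaling, no count filter, DESeq2 1.42.0, the replicate block, each library left out in turn, and the longest transcript as length.

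The single-gene result of 1 cell type marker is not reported here.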

Additional observations from a re-analysis of the deposited data

How the results depend on the processing

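Every log2 fold change of the 8 fitted genes moved by less than the spread between replicates under the alternatives run, except that of Egln1, which was -0.24 without Nfkb2-/- replicate 1. The number of the 9 genes called was 1 in the fit of all libraries and ran from 0 to 1 with a library left out. Called genes numbered 1 among partners and co-regulators (2 by DESeq2, 0 to 6 with a library left out), and 1 among targets outside glycolysis (2 by DESeq2, 2 with no count filter, 2 with the replicate block, 0 to 4 with a library left out). They numbered 0 among glycolytic targets (1 by DESeq2, 0 with any library left out) and 0 among other dioxygenases (1 by DESeq2, 1 with no count filter, 1 with the replicate block, 0 to 2 with a library left out). The VHL ligase list gave 0 in every fit. The replicate block changed no other call of a gene named by rule. RLE scaling moved no count. All genes called numbered 189, or 466 with no count filter, 633 by DESeq2, 289 blocked, and 7 to 1234 with a library left out. With the longest transcript as length, 10 of 18 levels per length moved by more than 1 SD. Depth limits Hif3a, with 19 and 42 counts per genotype; its genotype difference was not resolved at this depth.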
